A study of Mus musculus with 24 samples.

Results

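The 34 genes described here make up the cholesterol module of the mouse hippocampus: the enzymes that build cholesterol, the proteins that sense it and the proteins that move it out of the cell. They were chosen by gene name, as 18 genes of synthesis, 8 genes of SREBP control and uptake, and 8 genes of LXR and export. All 34 were among the 22314 named genes of the deposited table, and all 34 were among the 18364 genes with enough reads to be tested. The libraries were made from total RNA of mouse hippocampi after hypoxia-ischemia at postnatal day 10, which injures the newborn brain mainly on one side. The genotypes were labelled Neil1-KO, Neil2-KO and WT, where Neil1 and Neil2 encode DNA glycosylases that start base excision repair. Each genotype had 8 libraries, 2 from the ipsilateral (injured) and 2 from the contralateral hippocampus at the 3 h and at the 6 h time point, so that 24 libraries formed 12 groups of 2. Every animal had been through hypoxia-ischemia, and the contralateral side is the opposite hemisphere of such animals, not tissue of an unoperated pup. Alleles, strain and sex were not given in the labels. The design text can be read as 3 h and 6 h of hypoxia-ischemia or as times after it, so these times are used here as labels.

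Most tissues can take up cholesterol from circulating lipoproteins, but the brain is shut off from these by the blood-brain barrier and makes its own. In each cell, Scap carries the SREBP transcription factors from the endoplasmic reticulum to the Golgi, where proteases release their active part, and the Insig proteins hold that complex back when sterols are plentiful. SREBP-2, encoded by Srebf2, acts mainly on the genes of synthesis, and Insig1 is itself one of its targets. The liver X receptors (LXR), encoded by Nr1h2 and Nr1h3, are activated by oxysterols and drive export through genes such as Abca1, Abcg1 and Apoe. In the brain, astrocytes are the main source of Apoe, and neurons express Cyp46a1, whose product lets cholesterol leave across the barrier.

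The promoters of 5 members are printed. Insig1, Idi1 and Msmo1 rose on the injured side in all 3 genotypes at both times. Mvd fell at 6 h over the mean of genotypes, and within single genotypes it was called only for the label Neil1-KO. Hmgcs1 was the single member whose window held the sterol regulatory element searched for. Each window runs in the direction of its gene from 250 bases before to 50 bases after the transcript start, as RefSeq gives it on GRCm38.p6, which is not the build of the deposited counts. Capitals mark exact matches, on either strand, to the sterol regulatory element TCACNCCAC, the CCAAT box (CCAAT, or ATTGG where it lies on the opposite strand) and the E-box CACGTG. The windows lie at chr5:28071162-28071461 (plus strand) for Insig1, chr13:8885356-8885655 (plus strand) for Idi1, chr8:64733529-64733828 (minus strand) for Msmo1, chr13:119690101-119690400 (plus strand) for Hmgcs1 and chr8:122443373-122443672 (minus strand) for Mvd.
Insig1: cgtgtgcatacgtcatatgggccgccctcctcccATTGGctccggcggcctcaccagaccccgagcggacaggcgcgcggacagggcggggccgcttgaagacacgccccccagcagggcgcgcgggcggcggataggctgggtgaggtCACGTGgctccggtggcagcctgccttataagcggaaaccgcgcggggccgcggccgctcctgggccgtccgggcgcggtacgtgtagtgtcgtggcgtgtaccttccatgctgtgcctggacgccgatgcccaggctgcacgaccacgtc
Idi1: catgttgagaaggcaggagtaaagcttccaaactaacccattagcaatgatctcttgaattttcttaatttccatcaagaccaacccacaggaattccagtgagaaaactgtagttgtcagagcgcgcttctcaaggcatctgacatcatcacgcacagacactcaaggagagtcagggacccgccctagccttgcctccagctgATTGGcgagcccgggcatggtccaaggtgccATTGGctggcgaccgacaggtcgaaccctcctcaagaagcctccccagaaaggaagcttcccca
Msmo1: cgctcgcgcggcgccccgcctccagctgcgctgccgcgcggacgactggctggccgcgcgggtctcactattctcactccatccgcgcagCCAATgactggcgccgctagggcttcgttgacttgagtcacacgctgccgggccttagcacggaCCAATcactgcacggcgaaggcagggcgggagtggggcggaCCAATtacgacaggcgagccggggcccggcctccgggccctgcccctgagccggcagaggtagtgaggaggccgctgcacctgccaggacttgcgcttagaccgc
Hmgcs1: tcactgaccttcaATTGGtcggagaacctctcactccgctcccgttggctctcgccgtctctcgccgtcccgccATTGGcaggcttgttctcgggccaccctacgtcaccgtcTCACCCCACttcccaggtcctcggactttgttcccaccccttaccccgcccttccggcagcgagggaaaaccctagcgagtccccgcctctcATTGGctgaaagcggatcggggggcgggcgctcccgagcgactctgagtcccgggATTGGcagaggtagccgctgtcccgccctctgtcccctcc
Mvd: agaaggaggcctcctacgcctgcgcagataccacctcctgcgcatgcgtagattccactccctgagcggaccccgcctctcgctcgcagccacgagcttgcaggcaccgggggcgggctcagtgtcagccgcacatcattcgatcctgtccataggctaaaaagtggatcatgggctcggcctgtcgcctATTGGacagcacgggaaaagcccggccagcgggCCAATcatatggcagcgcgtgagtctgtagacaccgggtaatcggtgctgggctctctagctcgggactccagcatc

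The RefSeq promoter table matched 28 of the 34 members, with 39 windows, and held none for Fdps, Fdft1, Sqle, Stard4, Npc1 and Abcg1. A CCAAT box was found in 22 of the 28 members (78.6%), against 41.1% of the 27025 genes with a window of the same length. A gene with more windows has more chances of a match. Counted by window, 23 of the 39 member windows held a CCAAT box, against 37.4% of all 32851 windows. For the E-box it was 7 of 39, against 7.15% of all windows. The E-box was found in 6 of 28 members (21.4%), against 8.09% of all genes, and Insig1 was one of the 6. The sterol regulatory element was found in 1 of 28 members (3.57%), against 1.44% of all genes, and that match lay 137 bases before the start of Hmgcs1, the gene of HMG-CoA synthase. The promoter of Msmo1 held 3 CCAAT boxes and that of Hmgcs1 held 4, while the window of Insig1 held 1 together with its E-box. These are matches of letters in a window, and binding was not measured. The 3 motifs do not overlap one another in the printed windows.

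The libraries held 16231616 to 26292997 reads on named genes, and values are given as normalized counts, which are read counts divided by a size factor of the library. Neil2 stood at 0 to 3.02 normalized counts in the 8 Neil2-KO libraries, against 15.2 to 27.8 in WT. Neil1 stood at 91.6 to 155 normalized counts in the 8 libraries labelled Neil1-KO, against 56.8 to 123 in WT, so that its RNA was not lower there and these libraries are called by their label throughout. All 12 markers of neurons and all 12 of astrocytes were detected in every group, while the summed choroid plexus markers ran from 329.5 to 37559 normalized counts across libraries. One library stood apart, replicate 2 of the ipsilateral group labelled Neil1-KO at 6 h, with the lowest sum of neuron markers of the 24 libraries (83591 normalized counts) and the highest sums for endothelium (15583), microglia and macrophages (10902), astrocytes (150436) and blood (50368). Xist was above 1000 normalized counts in both libraries of the animals numbered 2 labelled Neil1-KO at each time and Neil2-KO at 6 h, and at no more than 20.2 in the other 18 libraries, all 8 WT libraries among them.

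Levels differed widely within the module. Per kilobase of exon (all exons of the gene in GENCODE M21), averaged over the 24 libraries, Apoe, the main lipid carrier of the brain, was highest at 10700 normalized counts, followed by Hmgcs1 at 3480, Insig1 at 1270 and Idi1 at 955. The lowest were Npc1 at 74.2, Soat1 at 45.1 and Nr1h3 at 11.1 normalized counts per kilobase. LXR beta (Nr1h2, 191 per kilobase) was thus the more abundant of both LXR genes.

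On the injured side at 3 h, 11 of the 17 called members were synthesis genes that rose, a class that makes up 18 of the 34 members. The sterol sensor Insig1 rose with them. Over the mean of the 3 genotypes, 16 of the 34 members rose and 1 fell, while 14.1% of all genes tested rose and 17.4% fell. Of the 18 synthesis genes 11 rose and none fell, of the 8 genes of SREBP control and uptake 4 rose and 1 fell, and of the 8 genes of LXR and export 1 rose and none fell. At 6 h the picture was mixed, and the 16 of 34 members called were near the share of all genes (8945 of 18364). 11 of the 34 rose and 5 fell, while 24% of all genes tested rose and 24.7% fell. These were 5 synthesis genes up and 4 down, 3 genes of SREBP control and uptake up and 1 down, and 3 genes of LXR and export up and none down. The median log2 fold change of the members was 0.17 at 3 h and 0.12 at 6 h, against 0.01 and 0.02 over all genes tested. The test was limma-trend on log2(normalized count + 1), and the call was an adjusted p (Benjamini-Hochberg, over the 18364 genes) under 0.05.

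**Figure D1:**
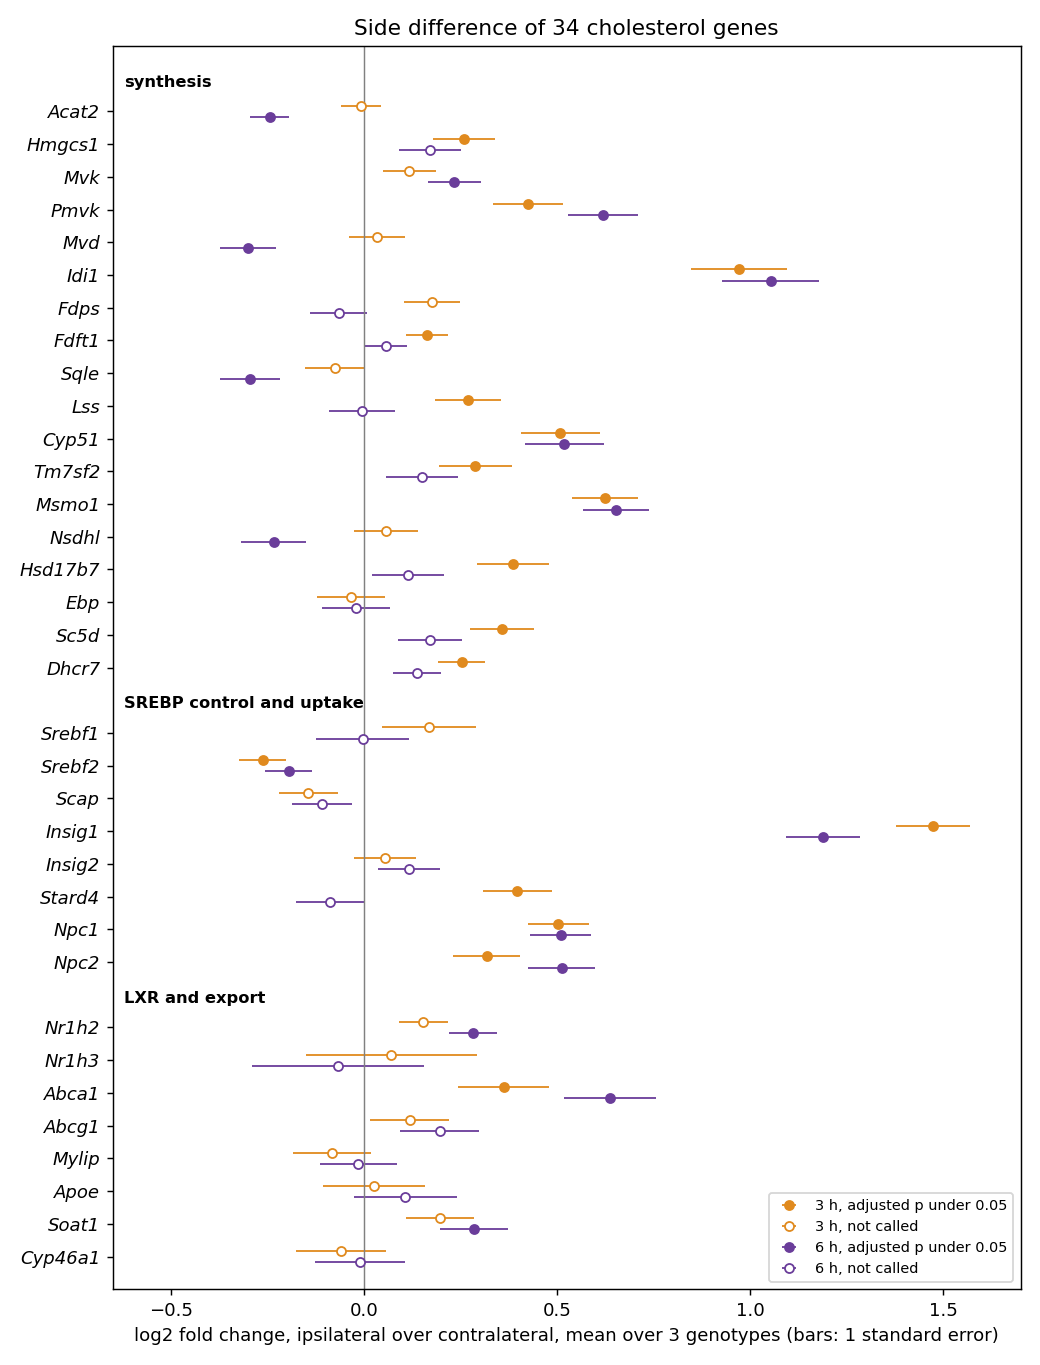
Log2 fold change (ipsilateral over contralateral, mean over 3 genotypes) of each of the 34 members at 3 h and 6 h, by class, with bars of 1 standard error; filled points passed an adjusted p of 0.05. Insig1 stands farthest to the right at both times, with Idi1 and Msmo1 next among the synthesis genes, while Acat2, Mvd, Sqle and Nsdhl lie left of 0 at 6 h.

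Insig1, whose protein retains the SREBP complex in the endoplasmic reticulum, changed most of all members at both times. At 3 h it stood at 4849.7 and 7094 normalized counts in the ipsilateral libraries labelled Neil1-KO, 5173 and 7021 in those of Neil2-KO and 5959 and 6185 in those of WT. This compares with 2042 and 1946 in the contralateral libraries labelled Neil1-KO, 2012 and 1966 in those of Neil2-KO and 2915 and 2192 in those of WT. At that time the lowest ipsilateral library was above the highest contralateral one. At 6 h it stood at 4278 and 4295 normalized counts in the ipsilateral libraries labelled Neil1-KO, 6706 and 6394 in those of Neil2-KO and 5518 and 4400.2 in those of WT. This compares with 2419.9 and 2378 in the contralateral libraries labelled Neil1-KO, 2072 and 2171 in those of Neil2-KO and 2414 and 2178 in those of WT. All ipsilateral libraries were above all contralateral ones, and the ratio of the sides within an animal ran from 2.04 to 3.65 at 3 h and from 1.77 to 3.24 at 6 h. Insig1 had a log2 fold change of 1.47 (SE 0.096, adjusted p = 5.14e-09) at 3 h and 1.19 (SE 0.096, adjusted p = 2.99e-08) at 6 h, a 2.78-fold and a 2.28-fold higher level.

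Idi1 makes dimethylallyl diphosphate from isopentenyl diphosphate, the step that yields both building blocks of squalene. At 3 h it stood at 3736 and 5658 normalized counts in the ipsilateral libraries labelled Neil1-KO, 3452 and 5181 in those of Neil2-KO and 3845 and 4185 in those of WT. It stood at 2318 and 1973 in the contralateral libraries labelled Neil1-KO, 1968 and 2207 in those of Neil2-KO and 2813 and 1919 in those of WT. The 3 h values of the sides did not overlap. At 6 h it stood at 4471 and 4633 normalized counts in the ipsilateral libraries labelled Neil1-KO, 4938 and 5164 in those of Neil2-KO and 5128 and 3471 in those of WT. It stood at 2292 and 2278 in the contralateral libraries labelled Neil1-KO, 2301 and 1958 in those of Neil2-KO and 2264 and 2210.3 in those of WT. Both sides were apart in every group, with the widest spread in the 3 h libraries labelled Neil1-KO. Idi1 rose by 0.97 (SE 0.12, adjusted p = 1.6e-05) at 3 h and 1.05 (SE 0.12, adjusted p = 2.03e-06) at 6 h on the log2 scale.

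Msmo1, the methylsterol monooxygenase that acts after Cyp51 in the removal of methyl groups from lanosterol-derived sterols, also rose in every animal. At 3 h it stood at 3467 and 3873 normalized counts in the ipsilateral libraries labelled Neil1-KO, 3490.3 and 4084 in those of Neil2-KO and 3638 and 3951 in those of WT. These compare with 2339.9 and 2200.4 in the contralateral libraries labelled Neil1-KO, 2252 and 2627 in those of Neil2-KO and 2926 and 2303 in those of WT. There was no overlap of the sides at 3 h. At 6 h it stood at 3965 and 3871 normalized counts in the ipsilateral libraries labelled Neil1-KO, 4019 and 4329 in those of Neil2-KO and 4183 and 2846 in those of WT. These compare with 2497 and 2383 in the contralateral libraries labelled Neil1-KO, 2447 and 2571 in those of Neil2-KO and 2396 and 2349.6 in those of WT. The lowest ipsilateral library at 6 h, from WT, was still above the highest contralateral one. Its log2 fold change was 0.62 (SE 0.085, adjusted p = 2.97e-05) at 3 h and 0.65 (SE 0.085, adjusted p = 5.95e-06) at 6 h.

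**Figure D2:**
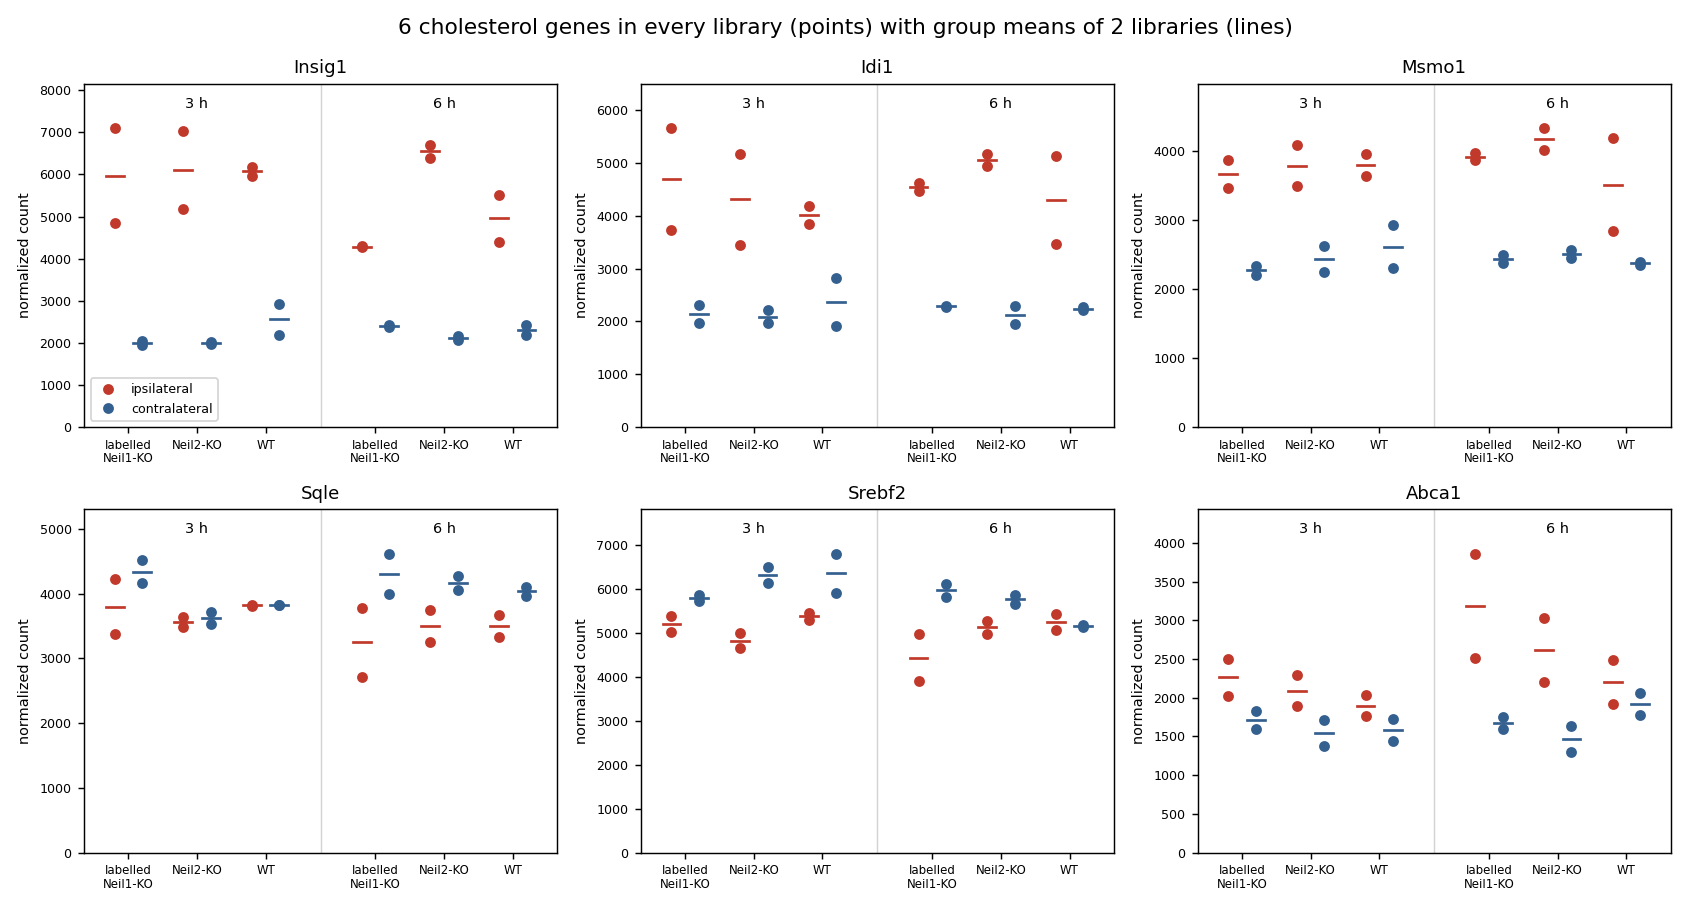
Normalized counts of 6 members in each of the 24 libraries (points) with the mean of each group of 2 (lines), by genotype and time, with the ipsilateral side left of the contralateral side. Insig1, Idi1 and Msmo1 are higher on the ipsilateral side in all groups, Sqle is lower there at 6 h, Srebf2 is lower there at 3 h, and the sides of Abca1 at 6 h are closest in WT.

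Among the other early enzymes, which lead from acetyl-CoA to squalene, the direction was not shared. Pmvk, phosphomevalonate kinase, had 1017 to 1329.6 normalized counts (median 1252) in the 6 ipsilateral libraries, against 721 to 935 (median 772) in the 6 contralateral ones at 6 h. Its log2 fold change was 0.43 (SE 0.09, adjusted p = 0.00154) at 3 h and 0.62 (SE 0.09, adjusted p = 2.06e-05) at 6 h, and the sides did not overlap at 6 h. The enzymes on either side of it in the mevalonate pathway are Mvk, mevalonate kinase, which rose at 6 h (log2 fold change 0.23, SE 0.069, adjusted p = 0.00888) and not at 3 h (log2 fold change 0.12, SE 0.069, adjusted p = 0.209), and Mvd, which acts next. Mvd, the decarboxylase that yields isopentenyl diphosphate, had 722 to 955 normalized counts (median 840.4) in the 6 ipsilateral libraries, against 866 to 1335 (median 981) in the 6 contralateral ones at 6 h. It fell there, with a log2 fold change of -0.30 (SE 0.072, adjusted p = 0.00212), and did not pass at 3 h (log2 fold change 0.03, SE 0.072, adjusted p = 0.754). At 6 h it was lower in 5 of 6 animals, and the group means varied in size and direction. No difference of Mvd between genotypes in the side difference was called over both times, and one at 6 h alone was not tested. The ipsilateral against contralateral means were 758.8 and 1261 normalized counts for the label Neil1-KO, 915.5 and 889.8 for Neil2-KO and 848 and 981 for WT. Within single genotypes, only the fall for the label Neil1-KO was called.

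Acat2, the thiolase of the first step, also fell at 6 h. It had 1896 to 2035 normalized counts (median 1955) in the 6 ipsilateral libraries, against 2004 to 2626 (median 2302) in the 6 contralateral ones at 6 h and was lower on the injured side in 6 of 6 animals. The difference was -0.24 (SE 0.051, adjusted p = 0.000709) on the log2 scale at 6 h and -0.01 (SE 0.051, adjusted p = 0.923) at 3 h. A near copy of it, Acat3, is listed separately at a mean of 702 normalized counts, and reads that fit both could have been counted for either. Hmgcs1, HMG-CoA synthase, had 15450.4 to 20026 normalized counts (median 16764) in the 6 ipsilateral libraries, against 12635 to 16213 (median 14386) in the 6 contralateral ones at 3 h. The 6 h values were 13730.4 to 19251 normalized counts (median 17811) in the 6 ipsilateral libraries, against 14268 to 16974 (median 15062) in the 6 contralateral ones. Its log2 fold change was 0.26 (SE 0.08, adjusted p = 0.0193) at 3 h and 0.17 (SE 0.08, adjusted p = 0.088) at 6 h, and only the 3 h value passed by limma. At 6 h edgeR called it (log2 fold change 0.19, adjusted p = 0.0451), and it ran from 0.09 (adjusted p = 0.325) without WT ipsilateral replicate 1 to 0.25 (adjusted p = 0.00773) without WT ipsilateral replicate 2. The difference between the times was not called. Fdps, farnesyl diphosphate synthase, passed at neither time (at 3 h log2 fold change 0.18, SE 0.074, adjusted p = 0.0776), and Fdft1, squalene synthase, rose slightly at 3 h (log2 fold change 0.16, SE 0.054, adjusted p = 0.0293). In GENCODE M21, exons of Fdft1 share 18.3% of their bases with Ctsb on the opposite strand and those of Fdps share 26.7% with another gene on the same strand, so their counts are less certain.

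Of the 10 enzymes from squalene to cholesterol, 7 rose at 3 h, and 2 rose and 2 fell at 6 h. Sqle, squalene epoxidase, catalyses the first oxygenation and is held to be rate-limiting. Its 6 h values were 3779 and 2719.9 normalized counts in the ipsilateral libraries labelled Neil1-KO, 3254 and 3745 in those of Neil2-KO and 3678 and 3324 in those of WT. They compare with 4610.4 and 4000.2 in the contralateral libraries labelled Neil1-KO, 4051 and 4274 in those of Neil2-KO and 3969 and 4104 in those of WT. It was lower on the injured side in 6 of 6 animals, and the sides did not overlap. The log2 fold change was -0.29 (SE 0.078, adjusted p = 0.00438) at 6 h and -0.07 (SE 0.078, adjusted p = 0.497) at 3 h.

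Cyp51, the lanosterol demethylase that acts before Msmo1, had 3965 to 5873 normalized counts (median 4404) in the 6 ipsilateral libraries, against 2896 to 3867 (median 3192) in the 6 contralateral ones at 3 h. Its 6 h values were 3657 to 5118 normalized counts (median 4789.6) in the 6 ipsilateral libraries, against 2859 to 3670.4 (median 3135) in the 6 contralateral ones. It was higher on the injured side in 6 of 6 animals at each time, with log2 fold changes of 0.51 (SE 0.10, adjusted p = 0.000994) at 3 h and 0.52 (SE 0.10, adjusted p = 0.000401) at 6 h. Nsdhl and Hsd17b7 work with Msmo1 in the same removal of methyl groups. Hsd17b7 rose at 3 h (log2 fold change 0.39, SE 0.093, adjusted p = 0.00378) and did not pass at 6 h (log2 fold change 0.11, SE 0.093, adjusted p = 0.329). Nsdhl did not pass at 3 h (log2 fold change 0.06, SE 0.083, adjusted p = 0.641) and fell at 6 h (log2 fold change -0.23, SE 0.083, adjusted p = 0.0271). The call of Nsdhl was lost when any one of 6 libraries was left out, namely replicate 1 of the contralateral and replicate 2 of the ipsilateral WT group, replicate 1 of both groups labelled Neil1-KO, and replicate 2 of both Neil2-KO groups (adjusted p from 0.054 to 0.0957). Sc5d, Dhcr7, Lss and Tm7sf2, a desaturase, the reductase of the last step, the cyclase that makes lanosterol and another sterol reductase, rose at 3 h by 0.25 to 0.36 on the log2 scale and by limma passed at 6 h for none of the 4. By edgeR Dhcr7 passed there (0.15 on the log2 scale, adjusted p = 0.0481). Within single genotypes at 6 h, limma called Dhcr7 in WT and Sc5d in Neil2-KO, and each call was lost in some fit without 1 library. Ebp, a sterol isomerase, passed at neither time.

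At 3 h, 12 of the 17 calls held when each library was left out in turn. The other calls, those of Hmgcs1, Fdft1, Lss, Tm7sf2 and Abca1, were less firm, and leaving out any of the 12 libraries of that time point removed at least 1 of these 5 (adjusted p from 0.0517 to 0.0988). At 6 h, 15 of 16 calls held, all but that of Nsdhl. Without the 6 h library that stood apart, 13 members rose and 5 fell, with Hmgcs1 (adjusted p = 0.0486) and Abcg1 (adjusted p = 0.0277) added. In a fit of the 6 h groups alone, Nsdhl (adjusted p = 0.0624) and Srebf2 (adjusted p = 0.0568) missed the threshold.

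Srebf2 moved against most of the synthesis genes at 3 h. At 3 h it stood at 5018 and 5370.2 normalized counts in the ipsilateral libraries labelled Neil1-KO, 4648 and 4988 in those of Neil2-KO and 5437 and 5296 in those of WT. Set against these were 5857 and 5723 in the contralateral libraries labelled Neil1-KO, 6128 and 6495 in those of Neil2-KO and 5910.2 and 6783 in those of WT. It was lower on the injured side in 6 of 6 animals with no overlap, with a log2 fold change of -0.26 (SE 0.061, adjusted p = 0.003). At 6 h it stood at 4963 and 3900.3 normalized counts in the ipsilateral libraries labelled Neil1-KO, 5267 and 4975 in those of Neil2-KO and 5055 and 5429.5 in those of WT. Set against these were 6114 and 5816 in the contralateral libraries labelled Neil1-KO, 5655 and 5862 in those of Neil2-KO and 5164 and 5129 in those of WT. The log2 fold change there was -0.19 (SE 0.061, adjusted p = 0.0132), with WT libraries of both sides close together. Srebf1, which gives the SREBP forms that act mainly on fatty acid genes, passed at neither time (at 3 h log2 fold change 0.17, SE 0.12, adjusted p = 0.311), nor did Scap (at 3 h log2 fold change -0.14, SE 0.077, adjusted p = 0.168) or Insig2 (at 6 h log2 fold change 0.12, SE 0.081, adjusted p = 0.251).

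The members that handle cholesterol from lysosomes rose at both times. Npc1, the membrane protein that passes cholesterol out of the lysosome, had 888 to 1113 normalized counts (median 939.5) in the 6 ipsilateral libraries, against 655 to 725 (median 679) in the 6 contralateral ones at 3 h. Its 6 h level was 867 to 1172 normalized counts (median 948) in the 6 ipsilateral libraries, against 631 to 773 (median 702) in the 6 contralateral ones. The sides did not overlap at either time, and the log2 fold change was 0.50 (SE 0.079, adjusted p = 0.00011) at 3 h and 0.51 (SE 0.079, adjusted p = 3.73e-05) at 6 h. Npc2, its soluble partner in the lysosome, had 1539.9 to 1966 normalized counts (median 1571) in the 6 ipsilateral libraries, against 1238 to 1391 (median 1306) in the 6 contralateral ones at 3 h. At 6 h its values were 1395 to 2345 normalized counts (median 1842) in the 6 ipsilateral libraries, against 1172 to 1423 (median 1287) in the 6 contralateral ones. It rose by 0.32 (SE 0.088, adjusted p = 0.01) at 3 h and 0.51 (SE 0.088, adjusted p = 0.000106) at 6 h on the log2 scale. Stard4, which shuttles sterols through the cytosol, rose at 3 h (log2 fold change 0.40, SE 0.089, adjusted p = 0.00236) and did not pass at 6 h (log2 fold change -0.09, SE 0.089, adjusted p = 0.446).

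In the LXR and export class, Abca1, which loads cellular cholesterol onto apolipoproteins, changed most. At 3 h it stood at 2503 and 2019 normalized counts in the ipsilateral libraries labelled Neil1-KO, 1887 and 2297 in those of Neil2-KO and 1762 and 2031 in those of WT. It was at 1832 and 1602 in the contralateral libraries labelled Neil1-KO, 1718 and 1382 in those of Neil2-KO and 1728 and 1447 in those of WT. Within each genotype the sides were apart at 3 h. At 6 h it stood at 2512 and 3853 normalized counts in the ipsilateral libraries labelled Neil1-KO, 3034 and 2201 in those of Neil2-KO and 2489.6 and 1919.5 in those of WT. It was at 1601 and 1754 in the contralateral libraries labelled Neil1-KO, 1629 and 1298 in those of Neil2-KO and 1779.5 and 2055 in those of WT. At 6 h the sides were apart in the libraries labelled Neil1-KO and in Neil2-KO and overlapped in WT. Abca1 rose by 0.36 (SE 0.12, adjusted p = 0.027) at 3 h and 0.64 (SE 0.12, adjusted p = 0.000235) at 6 h on the log2 scale. Nr1h2 had 599 to 769 normalized counts (median 686) in the 6 ipsilateral libraries, against 534 to 602 (median 567) in the 6 contralateral ones at 6 h. It was higher in 6 of 6 animals there, with a log2 fold change of 0.28 (SE 0.062, adjusted p = 0.00112), and did not pass at 3 h (log2 fold change 0.15, SE 0.062, adjusted p = 0.0696).

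Soat1, which esterifies cholesterol for storage, rose at 6 h by 0.29 (SE 0.088, adjusted p = 0.0123), and by 0.20 without the library that stood apart. Within single genotypes at 6 h, Soat1 was called only for the label Neil1-KO, to which that library belongs. Apoe had 20253 to 34834 normalized counts (median 21635) in the 6 ipsilateral libraries, against 19379.8 to 26859 (median 22939) in the 6 contralateral ones at 3 h. Its values at 6 h were 18254 to 31157 normalized counts (median 21372) in the 6 ipsilateral libraries, against 19123 to 29559.6 (median 20049) in the 6 contralateral ones. Apoe passed at neither time. Its log2 fold change was 0.03 (SE 0.13, adjusted p = 0.9) at 3 h and 0.11 (SE 0.13, adjusted p = 0.53) at 6 h. Cyp46a1, the neuronal hydroxylase, had 1222 to 1553 normalized counts (median 1412) in the 6 ipsilateral libraries, against 1091 to 1816 (median 1505) in the 6 contralateral ones at 3 h. At 6 h there were 935 to 1914 normalized counts (median 1143) in the 6 ipsilateral libraries, against 1038 to 1335 (median 1229) in the 6 contralateral ones. Cyp46a1 also passed at neither time. Its log2 fold change was -0.06 (SE 0.12, adjusted p = 0.728) at 3 h and -0.01 (SE 0.12, adjusted p = 0.953) at 6 h. The sides of both genes overlapped, and the sign of these small differences changed in some fits that left out a library, given with the processing alternatives. Nr1h3, Abcg1 and Mylip, whose product marks lipoprotein receptors for degradation, passed at neither time, with log2 fold changes of -0.08 to 0.20 over both times.

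Markers of several cell types differed between the sides together with these genes. Beside the counts of markers called here, 14.1% of all genes tested rose and 17.4% fell at 3 h, and 24% rose and 24.7% fell at 6 h. Of the 12 neuron markers 9 fell at 3 h and 11 at 6 h, and their sum was 134484 to 179261 normalized counts in the ipsilateral against 202595 to 226144 in the contralateral libraries at 3 h, and 83591 to 159058 against 186728 to 230918 at 6 h. Of the 10 endothelial markers 6 rose at 3 h, and 7 rose and 1 fell at 6 h, with sums of 7523 to 9369 in the ipsilateral against 4690.1 to 5821 in the contralateral libraries at 3 h, and 6529.5 to 15583 against 5069 to 5675 at 6 h. The microglia and macrophage list had 7 of 12 higher and 2 lower at 6 h, with sums of 4805 to 10902 in the ipsilateral against 4239 to 6105 in the contralateral libraries. Of the 12 astrocyte markers 5 rose and 2 fell at 6 h, with sums of 71743 to 150436 in the ipsilateral against 90682 to 104675 in the contralateral libraries. At 3 h the sums overlapped between the sides for microglia and macrophages (4290 to 7027 against 4384 to 6248) and astrocytes (86463 to 136478 against 92605 to 112371). Those of the oligodendrocyte lineage overlapped at 3 h (11691 to 26495 against 14198 to 46464.5) and at 6 h (10867 to 28939 against 13645 to 21491). Of the 7 blood markers tested 2 rose at 3 h and 6 at 6 h. Choroid plexus markers went opposite ways in 2 genotypes at 6 h. Their sums were 12456 to 21490.1 normalized counts in the ipsilateral libraries labelled Neil1-KO, against 399 to 477 in the contralateral ones, while in WT they were 583 to 597 in the ipsilateral libraries, against 29531 to 32193 in the contralateral ones. Blood markers summed to 20336 to 50368 in the ipsilateral libraries labelled Neil1-KO at 6 h, against 10702 to 13825 in the contralateral ones. None of the neuron, endothelial, microglia, astrocyte and choroid plexus lists had a marker at 0 in a whole group. A further fit held a term for the choroid plexus markers, the mean of their log2(normalized count + 1) values in each library. With this term, the counts of called members over the mean of genotypes were 17 at 3 h and 16 at 6 h, as without it. At 6 h this is a weak check, since the opposite shifts of the label Neil1-KO and WT offset each other in part in that mean. For the label Neil1-KO at 6 h calls were lost with the term, as given below. The part of the other shifts in the module's values was not tested, and in bulk tissue fewer cells of a type and less RNA per cell cannot be told apart.

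Within single genotypes, the same members led. At 3 h Insig1, Idi1 and Msmo1 rose in all 3 genotypes, and at 6 h these and Pmvk did, while no member had opposite calls in different genotypes. In WT at 3 h Idi1 missed the threshold with the animal as a block (adjusted p = 0.0531), with no filter (0.0504), by edgeR (0.0521) and with a sex term (0.0591), as did Msmo1 with a sex term (0.0563). Xist was low in all WT libraries, so the sex term left these fold changes as they were. At 6 h Msmo1 in WT missed the threshold in a fit of the compared groups alone (adjusted p = 0.0841). Pmvk labelled Neil1-KO missed it there in such a fit (0.0637) and with a choroid plexus term (0.0939). Of the 34 members, 10 rose and none fell in the libraries labelled Neil1-KO at 3 h (7.2% of all genes higher, 9.85% lower), 4 rose and 1 fell in Neil2-KO (4.29% higher, 4.95% lower), and 3 rose and none fell in WT (2.49% higher, 1.79% lower). At 6 h, 10 rose and 5 fell in the libraries labelled Neil1-KO (17.6% higher, 21.4% lower), 9 rose and none fell in Neil2-KO (12.2% higher, 12.6% lower), and 7 rose and none fell in WT (10.4% higher, 10.3% lower). The 5 that fell in the libraries labelled Neil1-KO at 6 h were Acat2, Mvd, Sqle, Srebf2 and Scap, and the member that fell in Neil2-KO at 3 h was Srebf2. With the choroid plexus term, 9 of the 15 calls labelled Neil1-KO at 6 h were left, without Pmvk, Sqle, Cyp51, Scap, Npc1 and Nr1h2 (adjusted p from 0.07 to 0.173).

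With 2 libraries a group, these counts rest on single libraries. Insig1 was called in all 6 genotype and time sets whichever library was left out, and Idi1 and Msmo1 lost their calls in some such fits of Neil2-KO at 3 h and of WT at both times. The count at 3 h labelled Neil1-KO was 4 without either contralateral library, that of Neil2-KO was 1 without contralateral replicate 1 or ipsilateral replicate 2, and that of WT was 1 without contralateral replicate 2 or either ipsilateral library. At 6 h the count labelled Neil1-KO was 7 without ipsilateral replicate 2, the library that stood apart, that of Neil2-KO was 5 without contralateral replicate 2 or ipsilateral replicate 1, and that of WT was 3 without replicate 1 of either side and 1 without contralateral replicate 2.

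**Figure D3:**
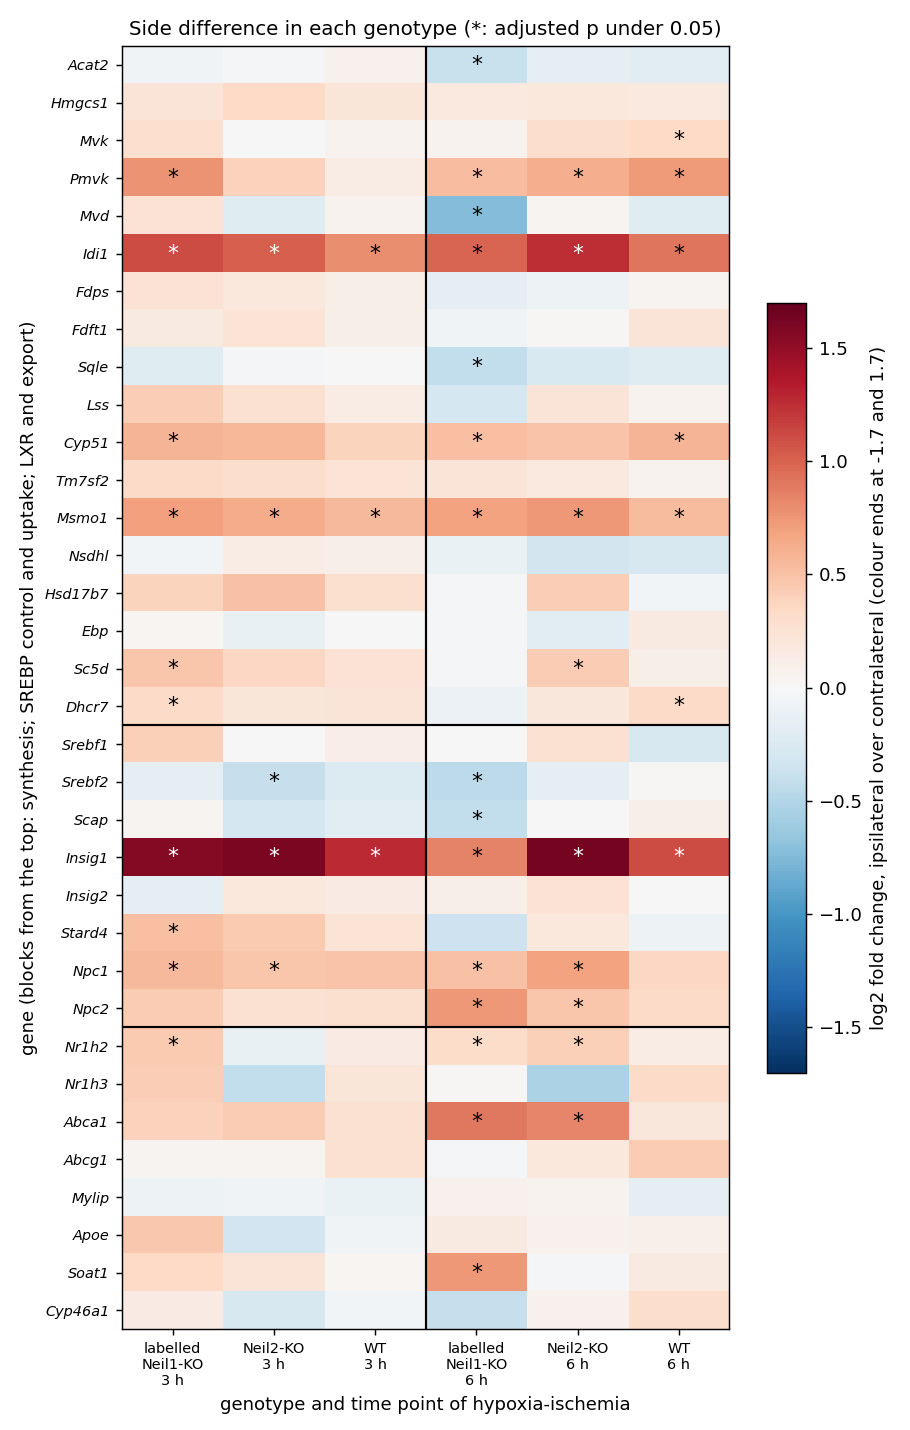
Log2 fold change (ipsilateral over contralateral) of the 34 members in each genotype at 3 h (left) and 6 h (right), in red where higher and in blue where lower on the ipsilateral side, with asterisks at an adjusted p under 0.05. Insig1, Idi1 and Msmo1 are marked in all 6 columns, and the column labelled Neil1-KO at 6 h holds 5 marked blue cells.

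The side difference itself did not change detectably with genotype. Neither in the libraries labelled Neil1-KO nor in Neil2-KO did any member, or any of the 18364 genes (0%), differ from WT in its side difference, as the mean over both times, by limma. At an unadjusted p under 0.05 there were 2 members for the label Neil1-KO (2652 of all genes) and 2 for Neil2-KO (976 of all genes). For the label Neil1-KO these were Soat1 (log2 fold change 0.44, SE 0.15, adjusted p = 0.303) and Nr1h2 (log2 fold change 0.24, SE 0.11, adjusted p = 0.328), and for Neil2-KO they were Insig1 (log2 fold change 0.43, SE 0.17, adjusted p = 0.869) and Hsd17b7 (log2 fold change 0.35, SE 0.16, adjusted p = 0.869). Of the members, edgeR and DESeq2 called none in either comparison. Leaving out ipsilateral replicate 1 labelled Neil1-KO at 6 h gave 2 called members for that label.

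Nor did any member pass the test of a side difference that changed between 3 h and 6 h, where 1.9% of all genes did. An unadjusted p under 0.05 was found for 6 of the 34 members, against 16.6% of all genes. The largest change was that of Stard4, the sterol shuttle, with -0.48 (SE 0.13, adjusted p = 0.0555) for 6 h over 3 h. With the animal as a block its adjusted p was 0.0331, and DESeq2 gave 0.0143 and also called Acat2 (adjusted p = 0.0356), while edgeR called none of the members. Mvd (log2 fold change -0.33, SE 0.10, adjusted p = 0.0967) and Acat2 (log2 fold change -0.24, SE 0.073, adjusted p = 0.1) came next in size of the limma p. Leaving out 1 library called 1 member without WT ipsilateral 6 h replicate 1, without labelled Neil1-KO ipsilateral 3 h replicate 1 or 6 h replicate 2, or without Neil2-KO contralateral 6 h replicate 1 or 3 h replicate 2, and 2 members without labelled Neil1-KO ipsilateral 6 h replicate 1.

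Compared directly, 6 h and 3 h differed for none of the members on the ipsilateral side (12.7% of all genes) or the contralateral side (0.332% of all genes), by limma or edgeR. At an unadjusted p under 0.05 there were 5 members on the ipsilateral side (27.8% of all genes) and 8 on the contralateral side (12.6% of all genes), where DESeq2 called none either. On the ipsilateral side Stard4 (log2 fold change -0.26, SE 0.089, adjusted p = 0.0673) and Abca1 (log2 fold change 0.33, SE 0.12, adjusted p = 0.077) came nearest, and DESeq2 called both (adjusted p = 0.0413 and 0.0344). Leaving out WT ipsilateral 6 h replicate 2, labelled Neil1-KO ipsilateral 3 h replicate 1 or 6 h replicate 1 called 2 members there, and leaving out Neil2-KO ipsilateral 6 h replicate 2 called 1.

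Between genotypes, as the mean over both times, Sc5d and Soat1 were the members that differed. Both did so on the ipsilateral side and for the label Neil1-KO against WT (1.91% of all genes higher, 7.4% lower). Sc5d lies on chromosome 9, as do Neil1 itself and Scap, which was not called in this comparison. Alleles and strain were not given, and the part of DNA linked to Neil1 in the difference of Sc5d was not tested. Sc5d, the desaturase of the late pathway, stood at 1441, 1753, 1336 and 1322 normalized counts in the ipsilateral libraries labelled Neil1-KO, 1996, 2275, 2203 and 2068 in Neil2-KO and 2101, 2159, 2145 and 1583 in WT. On the contralateral side it stood at 1152, 1137, 1384 and 1322 normalized counts in the libraries labelled Neil1-KO, 1598, 1749, 1729 and 1447 in Neil2-KO and 2039, 1581, 1651 and 1784 in WT. The libraries labelled Neil1-KO were the lowest on the contralateral side with no overlap with WT, and overlapped with a single WT library on the ipsilateral side. The log2 fold change against WT was -0.45 (SE 0.10, adjusted p = 0.0149) on the ipsilateral side and -0.50 (SE 0.10, adjusted p = 0.0749) on the contralateral side, where 0.103% of all genes and no member passed. On the contralateral side 3 members had an unadjusted p under 0.05 (6.76% of all genes), edgeR called none, and DESeq2 called Sc5d (adjusted p = 0.00215) and Acat2 (log2 fold change 0.24, adjusted p = 0.0393). Sc5d was also called there in the fit of the compared groups alone (adjusted p = 0.0159), and leaving out WT contralateral 3 h replicate 2 called 1 member.

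Soat1 stood at 526, 497, 509.5 and 733 normalized counts in the ipsilateral libraries labelled Neil1-KO, 516, 445, 478 and 398 in Neil2-KO and 438, 402, 436 and 388 in WT. On the contralateral side it stood at 439, 374, 372 and 359 normalized counts in the libraries labelled Neil1-KO, 399, 425, 461 and 436 in Neil2-KO and 434, 385, 387 and 352 in WT. The 4 ipsilateral libraries labelled Neil1-KO were all above the 4 of WT, and the highest was the library that stood apart. The log2 fold change was 0.43 (SE 0.11, adjusted p = 0.0232) on the ipsilateral and -0.01 (SE 0.11, adjusted p = 0.993) on the contralateral side. Without the library that stood apart it was 0.30 on the ipsilateral side, with an adjusted p of 0.14.

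**Figure D4:**
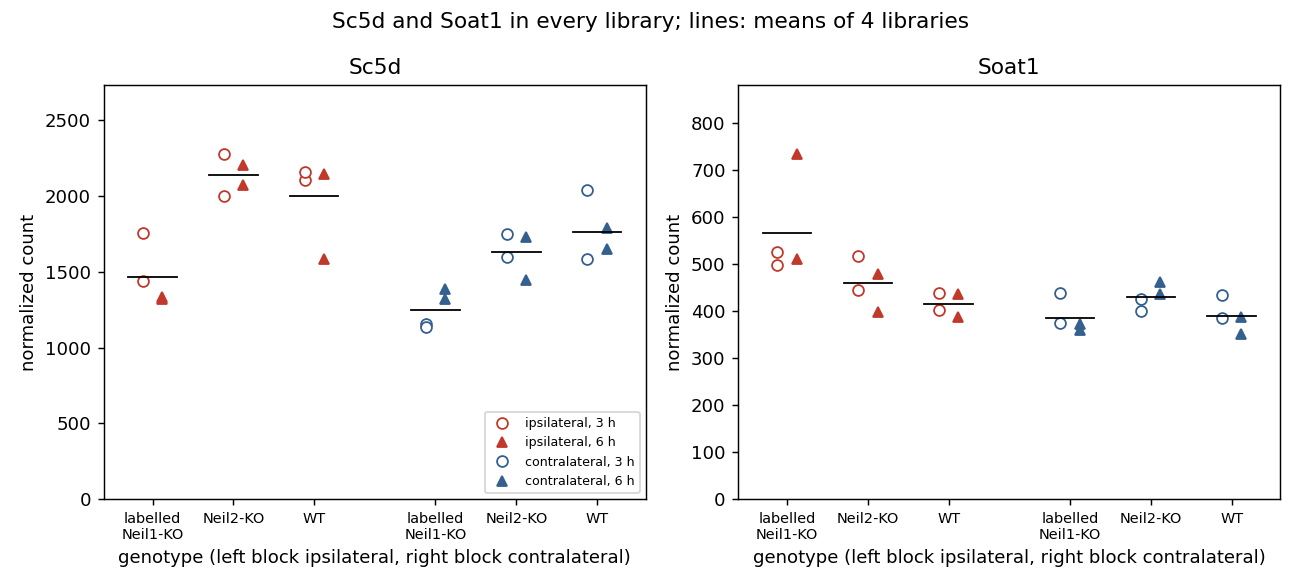
Normalized counts of Sc5d and Soat1 in every library by genotype, with the ipsilateral side in the left block, open circles for 3 h, filled triangles for 6 h and lines at the mean of 4 libraries. Sc5d is lowest in the libraries labelled Neil1-KO on both sides (means 1463 and 1249 normalized counts), and 1 ipsilateral library labelled Neil1-KO at 6 h carries the highest Soat1 value, 733.

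Both calls depended on the libraries in the fit. Sc5d missed the threshold without WT ipsilateral 3 h replicate 1 (adjusted p = 0.0713) and without labelled Neil1-KO ipsilateral 3 h replicate 1 (0.0875) or 6 h replicate 2 (0.0528). Soat1 missed it without the same 3 libraries (0.0784, 0.0973 and 0.14) and without WT ipsilateral 3 h replicate 2 (0.0751) or 6 h replicate 2 (0.0979). In all, 0 to 7 members were called when 1 library was left out, with 0 without WT 3 h replicate 1, labelled Neil1-KO 3 h replicate 1 or 6 h replicate 2, 1 without WT 3 h replicate 2 or 6 h replicate 2, 4 without labelled Neil1-KO 3 h replicate 2, 5 without WT 6 h replicate 1 and 7 without labelled Neil1-KO 6 h replicate 1. In a fit of these groups alone neither was called (adjusted p = 0.26 for each). With the choroid plexus term Soat1 was not called (log2 fold change 0.38, adjusted p = 0.119), and Sc5d was (-0.53, adjusted p = 0.0357). DESeq2 called 5 members, adding Abca1 (log2 fold change 0.41, adjusted p = 0.0493), Abcg1 (-0.37, adjusted p = 0.0404) and Cyp46a1 (-0.41, adjusted p = 0.0422).

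Cell type markers moved in the same comparison. On the ipsilateral side, 10 of 12 neuron markers and 4 of 12 oligodendrocyte lineage markers were lower in the libraries labelled Neil1-KO than in WT, and 1 of 10 choroid plexus, 2 of 10 endothelial and 2 of 7 tested blood markers were higher. The summed neuron markers were 83591 to 152166 normalized counts in the libraries labelled Neil1-KO, against 148968 to 179261 in WT, and the summed oligodendrocyte lineage markers 10867 to 19342 against 12635 to 28939. The summed endothelial markers were 7766 to 15583 in the libraries labelled Neil1-KO, against 6529.5 to 8661 in WT, the summed choroid plexus markers 329.5 to 21490.1 against 365 to 652, and the summed blood markers 10498 to 50368 against 7840 to 14381. On the contralateral side none of these markers was called, and the summed oligodendrocyte lineage markers were 13645 to 15189 in the libraries labelled Neil1-KO, against 16325 to 27223 in WT. The choroid plexus term ended the call of Soat1 and left that of Sc5d, as given above, and the part of the other markers was not tested. Over all genes the split was 351 higher and 1359 lower by limma, 535 and 1124 by edgeR, and 792 and 1626 by DESeq2.

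For Neil2-KO against WT no member was called on the ipsilateral side (0.109% of all genes) or on the contralateral side (0.0817% of all genes), by limma. At an unadjusted p under 0.05 there was 1 member on the ipsilateral side (5.8% of all genes), Hsd17b7 of the demethylation complex (log2 fold change 0.25, SE 0.11, adjusted p = 0.831). On the contralateral side there were 2 (8.61% of all genes), the isomerase Ebp (log2 fold change 0.31, SE 0.11, adjusted p = 0.504) and Nr1h3, LXR alpha (log2 fold change 0.69, SE 0.27, adjusted p = 0.523), which stood at the low level given above. Of the members, edgeR and DESeq2 called none on either side. Insig1 had a log2 fold change of 0.20 (SE 0.12, adjusted p = 0.875) on the ipsilateral side and -0.23 (SE 0.12, adjusted p = 0.604) on the contralateral side, and Abca1 one of 0.19 (SE 0.15, adjusted p = 0.892) on the ipsilateral and -0.22 (SE 0.15, adjusted p = 0.696) on the contralateral side.

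Genes next to the module in the same pathways moved in both directions. The counts of each list here and below stand beside those of all genes tested. Of these, 14.1% rose and 17.4% fell at 3 h, and 24% rose and 24.7% fell at 6 h. Of 12 genes of SREBP processing and sterol-regulated degradation, 1 rose and 5 fell at 3 h, and 2 rose and 7 fell at 6 h. Both proteases that release SREBP fell. Mbtps2 fell by 0.27 (adjusted p = 0.00612) at 3 h and fell by 0.62 (adjusted p = 1e-06) at 6 h on the log2 scale, and Mbtps1 fell by 0.29 (adjusted p = 0.00528) at 3 h and fell by 0.41 (adjusted p = 0.000145) at 6 h. Nfya, a subunit of the factor that binds CCAAT boxes, rose at 6 h (log2 fold change 0.40, SE 0.093, adjusted p = 0.00179), and Rnf145, a ubiquitin ligase of sterol control, fell (log2 fold change -0.26, SE 0.075, adjusted p = 0.00824). These falls went with those of the neuron markers given above, and that link was not tested.

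Of 11 genes of the isoprenoid branch, which uses the same precursors, 1 rose and 2 fell at 3 h, and 2 rose and 6 fell at 6 h. Dhdds and Nus1, the subunits of the enzyme that starts dolichol, fell at 6 h, with a log2 fold change of -0.57 (SE 0.061, adjusted p = 6.56e-07) for Dhdds and -0.31 (SE 0.057, adjusted p = 0.000207) for Nus1, while of the subunits of farnesyltransferase Fnta rose (log2 fold change 0.34, SE 0.059, adjusted p = 0.000118) and Fntb fell (log2 fold change -0.31, SE 0.069, adjusted p = 0.00127). Of 14 fatty acid genes under SREBP, 3 rose and 3 fell at 3 h, and 4 rose and 5 fell at 6 h. The fatty acid elongase Elovl5 (log2 fold change 0.81, SE 0.09, adjusted p = 1.09e-06) and the phosphatidate phosphatase Lpin1 (log2 fold change 0.56, SE 0.095, adjusted p = 9.52e-05) rose at 6 h, and fatty acid synthase Fasn (log2 fold change -0.42, SE 0.082, adjusted p = 0.000372) and the acyl-CoA synthetase Acsl3 (log2 fold change -0.47, SE 0.058, adjusted p = 3.47e-06) fell.

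Sterol transfer, lipoprotein receptors and oxysterol enzymes had 2 of 16 higher and 5 lower at 3 h, and 4 higher and 4 lower at 6 h. The apolipoprotein E and reelin receptors Lrp8 (log2 fold change -0.60, SE 0.06, adjusted p = 2.89e-07) and Vldlr (log2 fold change -0.69, SE 0.082, adjusted p = 2.08e-06) and the sterol transfer protein Gramd1b (log2 fold change -1.07, SE 0.07, adjusted p = 2.48e-09) fell at 6 h, and caveolin Cav1 (log2 fold change 1.23, SE 0.17, adjusted p = 1.04e-05), which is abundant in endothelium, rose. Of 12 LXR targets and lipid carriers outside the module, 3 rose and 4 fell at each time. The lipid-carrying chaperone Clu (log2 fold change 0.70, SE 0.10, adjusted p = 1.71e-05) and the small GTPase Arl4c (log2 fold change 0.44, SE 0.067, adjusted p = 3.35e-05) rose at 6 h, and the transporters Abca2 (log2 fold change -0.50, SE 0.082, adjusted p = 6.07e-05) and Abcg4 (log2 fold change -0.45, SE 0.073, adjusted p = 6.18e-05) fell. Of all genes tested, 14.1% rose and 17.4% fell at 3 h, and 24% rose and 24.7% fell at 6 h.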

How the data were processed

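Total RNA of 24 hippocampus libraries was extracted with a Qiagen AllPrep kit and sequenced from standard Illumina libraries, per the labels' protocols. The deposited table holds a signal per gene and library, which the authors obtained as read counts divided by size factors. The build was GRCm39 (mm39), and DESeq2, featureCounts, HISAT2, SAMtools and Trim Galore are named, per the submitters' processing notes. Their versions and any use of strand are not given in the sources used here. All values (100%, to a tolerance of 1e-06) were whole multiples of 1 read, so counts were recovered for the count-based alternatives. Of 33084 lines, 10770 (32.55%) carried no gene name and were left out. Groups follow the sample titles, since the 8 libraries titled as Neil2 knockouts carry the genotype tag of Neil1. The 34 members and the lists of pathway and marker genes were chosen with earlier results of these data known.

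Genes at 10 or more normalized counts in at least 2 of 24 libraries were tested (18364) with limma-trend (limma 3.58.1, R 4.3.3) on log2(value + 1), with 12 group means, 12 residual degrees of freedom and a two-sided Benjamini-Hochberg adjusted p over all genes in each of 17 comparisons. Fold changes are on the log2(value + 1) scale, which understates those of low genes, and the SE is the moderated standard error. The spread between 2 libraries of a group measures these samples. Values are given for the 12 members with the smallest adjusted p for the sides at 6 h, for every member called between genotypes, for Hmgcs1, Sqle, Srebf2, Insig1, Abca1, Apoe and Cyp46a1, and for up to 4 genes of each pathway list with the smallest adjusted p at 6 h. The other members named were chosen after their values were seen. Alternatives were a pseudocount of 5, no filter, edgeR 4.0.16 with TMM, DESeq2 1.42.0, a fit of the compared groups alone, a replicate block, a term for sex (Xist above 1000 normalized counts), a term for choroid plexus markers, and leaving out each library. The test was tried on simulated data first.

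Libraries of both sides with the same replicate number were taken as 1 animal, which the design text implies and does not say outright. Deviations from the group means correlated across genes between such libraries at 0.271 (3 h) and 0.155 (6 h) for the label Neil1-KO, 0.0537 and 0.035 for Neil2-KO, and -0.00576 and -0.00334 for WT. Promoters come from RefSeq on GRCm38.p6, gene overlaps and lengths from GENCODE M21, and no coordinates of the deposited build were used.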

Additional observations from a re-analysis of the deposited data

How the results depend on the processing

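The counts of called members for the sides over the mean of genotypes kept within 1.5 times of their values under all alternatives, from 12 to 17 at 3 h and 15 to 18 at 6 h when a library was left out. Fitting only the compared groups gave 4 called members in place of 10 for the label Neil1-KO at 3 h, 5 in place of 15 at 6 h, 10 in place of 5 for Neil2-KO at 3 h, 3 in place of 7 for WT at 6 h, 0 in place of 2 for the label Neil1-KO against WT on the ipsilateral side and 1 in place of 0 on the contralateral side. A choroid plexus term gave 9 in place of 15 for the label Neil1-KO at 6 h and 1 in place of 2 against WT on the ipsilateral side (Soat1 was lost). A sex term gave 1 in place of 3 for WT at 3 h. Xist was low in all WT libraries, so that term left the WT fold changes as they were and altered only their estimated spread. DESeq2 gave 2 for the side difference by time, 5 and 2 for the label Neil1-KO against WT on the ipsilateral and contralateral sides, and 2 for 6 h against 3 h on the ipsilateral side. The fits of the compared groups alone gave the fold changes of the main fit. They differed from it in the estimated spread and had fewer than its 12 residual degrees of freedom. The cause of the changes with the choroid plexus term and DESeq2 was not tested.

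The replicate block (the animal, for comparisons of sides) gave 1 called member in place of 0 for the side difference by time, Stard4. It left the counts for the mean over genotypes at 17 and 16, changed 11 calls of single genotypes, Idi1 in WT at 3 h among them, and moved no other count by over 1.5 times. Same-numbered libraries did not all correlate above 0.1, so the block is given as an alternative.

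With a library left out, the counts ran from 4 to 10 (label Neil1-KO, 3 h), 7 to 14 (6 h), 1 to 6 (Neil2-KO, 3 h), 5 to 9 (6 h), 1 to 3 (WT, 3 h) and 1 to 6 (6 h). They ran from 0 to 2 for the side difference by time, 0 to 7 and 0 to 1 for the label Neil1-KO against WT on the ipsilateral and contralateral sides, 0 to 2 for its side difference against WT, and 0 to 2 for 6 h against 3 h on the ipsilateral side. Differences near 0 changed sign. That of Apoe at 3 h turned negative without WT contralateral replicate 1 (-0.04) or labelled Neil1-KO ipsilateral replicate 1 (-0.10). Cyp46a1 at 3 h ranged from -0.13 to 0.014 with a library left out, positive without WT contralateral replicate 2. At 6 h Cyp46a1 was at 0.027 by edgeR and 0.014 by DESeq2 and ranged from -0.17 to 0.15 with a library left out. It was positive there without replicate 1 of either WT side, of either side labelled Neil1-KO or of the Neil2-KO contralateral side. The fit of the compared groups alone does not apply to the side difference by time, which uses all groups. Depth limits low members most, Nr1h3 above all, and 2 libraries a group limit every comparison within a genotype.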
